A study of Mus musculus with 19 samples.

Results

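Cell cycle and arrest genes were followed in fibroblasts grown out of 7 organs of adult mice. The list holds 49 genes of S phase, mitosis and cell cycle inhibition, among 20660 genes with a probe on the array. Each was found by the RefSeq accession of its probes, and the brightest probe of a gene was read on every array. All 49 had a probe, and 48 passed the filter on dim probes, being well above background on at least 2 arrays. The exception was Ccne2 (cyclin E2), whose single probe was well above background on 0 of 18 arrays. The members fall into 14 genes of S phase and replication, 14 cyclins, kinases and checkpoint genes, 15 genes of the spindle, chromosomes and cytokinesis, 3 transcription factors and 3 inhibitors.

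The 19 samples were untreated cells from gonad, heart, liver, lung and tail (3 each) and from kidney and skin (2 each). Animals were 8 to 10 weeks old, and their strain and sex are not given in the sources used here. Organ pieces of 2 to 3 mm were digested for 40 minutes at 37 °C in either 0.05% trypsin or 0.5 mg/mL collagenase, and which enzyme went with which organ is not given. All samples shared 5 days of culture in medium with 10% serum, with no sort named, so each is a mixed outgrowth read at 1 time point. RNA of each was labelled with Cy3 on an Agilent array with 1 colour. Scanner output was used for 18 arrays, and lung replicate 2 is known here only from the deposited value table. The labels do not say that replicates came from separate animals, so p-values measure only the spread between these samples, which may be technical.

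Cells enter S phase when cyclin-dependent kinases release E2F factors from the retinoblastoma family of pocket proteins, and E2F then drives replication genes such as the Mcm helicase subunits. Later in the cycle B-Myb (Mybl2) and FoxM1 drive cyclin B, the mitotic kinases and the spindle genes. Cdkn2a (p16INK4a and, in another reading frame, ARF), Cdkn2b (p15INK4b) and Cdkn1a (p21) hold the cycle back. Cdkn2a and Cdkn2b lie side by side in 1 locus, and their transcripts are known to accumulate in cultured and in senescent fibroblasts.

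Many of these genes share short sequences close to their start. RefSeq start sites (GRCm38.p6) were available for 40 of the 49 members, and the 250 bases before each start were searched on both strands. The CCAAT box, CCAAT, was present in 62.5% of the 40 members and in 37.5% of all 27025 genes of the table. It was found in 9 of 10 cyclin, kinase and checkpoint genes and in 8 of 12 replication genes. The letters TTTGAA, the core of the cell cycle homology region, were in 25% of members and 18.3% of all genes. E2F-like sites were rarer. TTTCCCGC was in 7.5% of members and 1.03% of all genes, TTTGGCGC in 5% and 0.485%, and TTTCGCGC in 7.5% and 0.3%. TTTGGCGC and TTTCGCGC overlap by their shared bases when they stand on opposite strands, as in Mcm5 and Mcm6. A match of letters is a description of the sequence and not a measured binding site.

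The promoters of 6 members are shown as examples: 2 mitotic regulators (Ccnb2 and Cdc20), a mitotic chromosome gene (Top2a), a pair of replication genes (Mcm5 and Mcm6) and an inhibitor (Cdkn2b). They do not stand for their roles as a whole. TTTGAA was in 3 of 10 cyclin, kinase and checkpoint genes, 5 of 13 spindle, chromosome and cytokinesis genes and 1 of 12 replication genes. TTTGGCGC was in 2 of 12 replication genes, the 2 shown. Each run is the 200 bases before the RefSeq start, 5′ to 3′ on the gene's own strand, with every match to the searched letters in capitals. On the minus strand lie Ccnb2 (chr9:70421555-70421754), Cdc20 (chr4:118437344-118437543), Top2a (chr11:99024190-99024389), Mcm6 (chr1:128359706-128359905) and Cdkn2b (chr4:89311033-89311232), and on the plus strand Mcm5 (chr8:75109309-75109508).
Ccnb2: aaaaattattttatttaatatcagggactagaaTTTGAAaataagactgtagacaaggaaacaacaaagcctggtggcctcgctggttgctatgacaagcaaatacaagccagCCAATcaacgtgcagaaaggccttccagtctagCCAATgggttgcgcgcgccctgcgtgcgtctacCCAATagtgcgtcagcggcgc
Cdc20: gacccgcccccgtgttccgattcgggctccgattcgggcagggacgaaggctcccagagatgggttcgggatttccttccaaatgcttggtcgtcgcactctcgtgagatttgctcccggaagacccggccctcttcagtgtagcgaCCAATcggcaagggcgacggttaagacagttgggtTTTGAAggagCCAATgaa
Top2a: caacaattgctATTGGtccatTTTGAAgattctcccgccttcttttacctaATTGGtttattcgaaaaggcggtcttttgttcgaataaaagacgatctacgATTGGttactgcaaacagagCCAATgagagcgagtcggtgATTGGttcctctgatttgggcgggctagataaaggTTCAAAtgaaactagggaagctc
Mcm5: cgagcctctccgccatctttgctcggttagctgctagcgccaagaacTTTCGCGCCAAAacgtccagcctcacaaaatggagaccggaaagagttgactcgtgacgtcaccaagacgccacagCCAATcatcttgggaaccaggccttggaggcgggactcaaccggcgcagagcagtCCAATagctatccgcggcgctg
Mcm6: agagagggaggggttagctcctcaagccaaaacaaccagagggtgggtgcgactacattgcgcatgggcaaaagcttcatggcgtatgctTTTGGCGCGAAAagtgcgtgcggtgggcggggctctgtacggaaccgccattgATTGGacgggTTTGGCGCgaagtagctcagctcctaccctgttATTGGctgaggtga
Cdkn2b: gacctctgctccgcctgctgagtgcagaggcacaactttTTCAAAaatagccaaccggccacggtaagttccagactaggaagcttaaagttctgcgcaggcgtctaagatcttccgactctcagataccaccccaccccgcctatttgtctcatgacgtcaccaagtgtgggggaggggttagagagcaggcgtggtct
Ccnb2 holds 3 CCAAT boxes in 1 orientation, whose first bases lie 87, 54 and 21 bases before the start. Mcm5 and Mcm6 hold the overlapping E2F-like pair, and Cdkn2b holds 1 TTTGAA on the opposite strand and no CCAAT.

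Signal at the floor differed between arrays, which bears on every value here. On 5 arrays (gonad 3, heart 1, kidney 1, kidney 2 and tail 2), called raised-floor arrays, the dark control spots were flagged by the scanner software as out of range. On heart 1 and both kidney arrays the 75th percentile of signal, the value used to scale each array, was 2276 to 4235, against 466 to 698.5 on the other 15. A bright gene is set lower on those 3 arrays by this scaling, and 46 of the 49 members were well above background on all 18 arrays. Each result is given from the planned fit (18 arrays, log2 of the processed signal less the array's 75th percentile, limma), from the 13 arrays without a raised floor, and from 18 arrays after quantile normalization, which gives all arrays 1 distribution. Differences are log2 of an organ mean less the mean of the other organ means, ± SE, with p-values adjusted by Benjamini-Hochberg over all genes. A gene passed at an adjusted p under 0.05 and a difference of at least 1. Counts at an unadjusted p were made for members only, so no share of all genes stands beside them. The 12 fibroblast markers were well above background on all 13 arrays without a raised floor.

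Over all organs 24 of 48 members passed limma's F test in the planned fit, where 32.3% of all genes did. On 13 arrays 43 of 47 members passed beside 53% of all genes, and after quantile normalization 37 of 48 beside 38.9%. The planned count rested on single arrays. It was 44 without heart 1, where 80.3% of all genes passed, and 37 without gonad 3. Without gonad 1 it was 12 and without gonad 2 it was 9. It was 3 to 7 without any one of the kidney, liver, lung, skin or tail arrays. Apart from the fit without heart 1, the share of all genes is not given for these fits. A change in the count is therefore not shown to be particular to members.

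The inhibitors Cdkn2a and Cdkn2b set tail and gonad cells apart from heart and skin cells. Both were higher in tail than in the mean of the other organs, by 4.56-fold and 5.87-fold in the planned fit, and both were lower in heart, by 3.39-fold and 3.88-fold. Both also passed as lower in kidney in that fit (-2.045 and -2.449), where 41.4% of all genes were lower. Neither passed in kidney after quantile normalization (-0.56 and -0.69). Cdkn2a was also 3.29-fold higher in gonad. Cdkn1a, the third inhibitor and a p53 target, passed in kidney in the planned fit, where the direction was not settled, and in no other organ.

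The processed signal of Cdkn2b, in scanner units for replicates in order, was 27342, 25784 and 29323 on tail arrays, 17424, 14568 and 10184 on gonad arrays, 20528, 5722 and 7428 on liver arrays and 6663 and 5961 on lung arrays. On kidney arrays it was 9742 and 6155, on heart arrays 3381, 2298 and 2045 and on skin arrays 3081 and 3082. All 3 tail arrays lay above the 15 others, and liver replicate 1 lay with gonad and tail rather than with the other liver arrays. In the planned fit tail was higher by 2.55 ± 0.42 (adjusted p = 0.00195), against 2.17 ± 0.36 on 13 arrays and 2.28 ± 0.26 after quantile normalization. Heart was lower, at -1.96 ± 0.42 (adjusted p = 0.0166). Gonad missed the threshold in the planned fit, at 1.57 (adjusted p = 0.0731), and passed on 13 arrays (1.34 ± 0.36, adjusted p = 0.0224) and after quantile normalization (1.29 ± 0.26, adjusted p = 0.011). Skin, at -0.78 in the planned fit (adjusted p = 0.635), passed on 13 arrays (-1.44 ± 0.36, adjusted p = 0.0142) but not after quantile normalization.

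Cdkn2a had processed signals of 14643, 14483 and 15197 on tail arrays, 12601, 9282 and 8624 on gonad arrays, 15934, 5243 and 5599 on liver arrays and 4567 and 3691 on lung arrays. It had 7142 and 6062 on kidney arrays, 3910, 1631 and 1050 on heart arrays and 1282 and 1493 on skin arrays. Liver 1 was again the bright liver array, and it read above every tail array. The planned differences were 2.19 ± 0.35 for tail (adjusted p = 0.00155), 1.72 ± 0.35 for gonad (adjusted p = 0.0161) and -1.76 ± 0.35 for heart (adjusted p = 0.00994). Skin was at -1.45 (adjusted p = 0.141) in the planned fit, and it passed on 13 arrays (-1.97 ± 0.36, adjusted p = 0.00405) and after quantile normalization (-1.67 ± 0.31, adjusted p = 0.0138). The gonad call was lost without gonad 1 (1.54, adjusted p = 0.172) or gonad 2 (1.70, adjusted p = 0.122). The heart call was lost without heart 3 (-1.75, adjusted p = 0.0592).

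The tail differences of both genes passed under each of 31 alternatives, from 1.84 to 2.31 for Cdkn2a and from 2.17 to 2.70 for Cdkn2b. Within slides 1, 2 and 3 the tail array exceeded the mean of the other arrays by 1.87, 1.80 and 2.62 for Cdkn2a and by 2.24, 2.12 and 3.13 for Cdkn2b. A second probe of each gene ran the same way on 13 arrays, by 1.64 ± 0.45 for Cdkn2a and 2.11 ± 0.41 for Cdkn2b in tail, and by -1.87 ± 0.45 and -2.25 ± 0.41 in heart. The second Cdkn2a probe was much dimmer, at 32 to 683 units over all 18 arrays.

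In pairs of organs on 13 arrays, the order of Cdkn2b from high to low was tail, gonad, liver, lung, skin and heart. Neighbours in that order did not pass against each other, at adjusted p = 0.272 for gonad against tail, 0.27 for gonad against liver, 0.701 for liver against lung, 0.218 for lung against skin and 0.58 for heart against skin. Tail against liver passed (1.58 higher, adjusted p = 0.0204), as did tail against lung, skin and heart. For Cdkn2a, gonad and tail differed by 0.33 ± 0.47 (adjusted p = 0.611) and heart and skin by 0.04 ± 0.47 (adjusted p = 0.959), while tail exceeded skin by 3.24 ± 0.47 (adjusted p = 0.00197).

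Cdkn1a read 13125, 16990 and 13867 in tail, 19709, 13923 and 8737 in gonad, 16160, 15983 and 10340 in heart, 23613, 14973 and 19455 in liver, 13609 and 9667 in lung, 10411 and 10067 in skin and 12913 and 25663 in kidney. Liver had the highest median and skin a narrow low range, and no organ lay apart from all the others. On 13 arrays its differences ran from -0.43 ± 0.22 (lung) to 0.43 ± 0.19 (liver), and none passed.

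**Figure D1:**
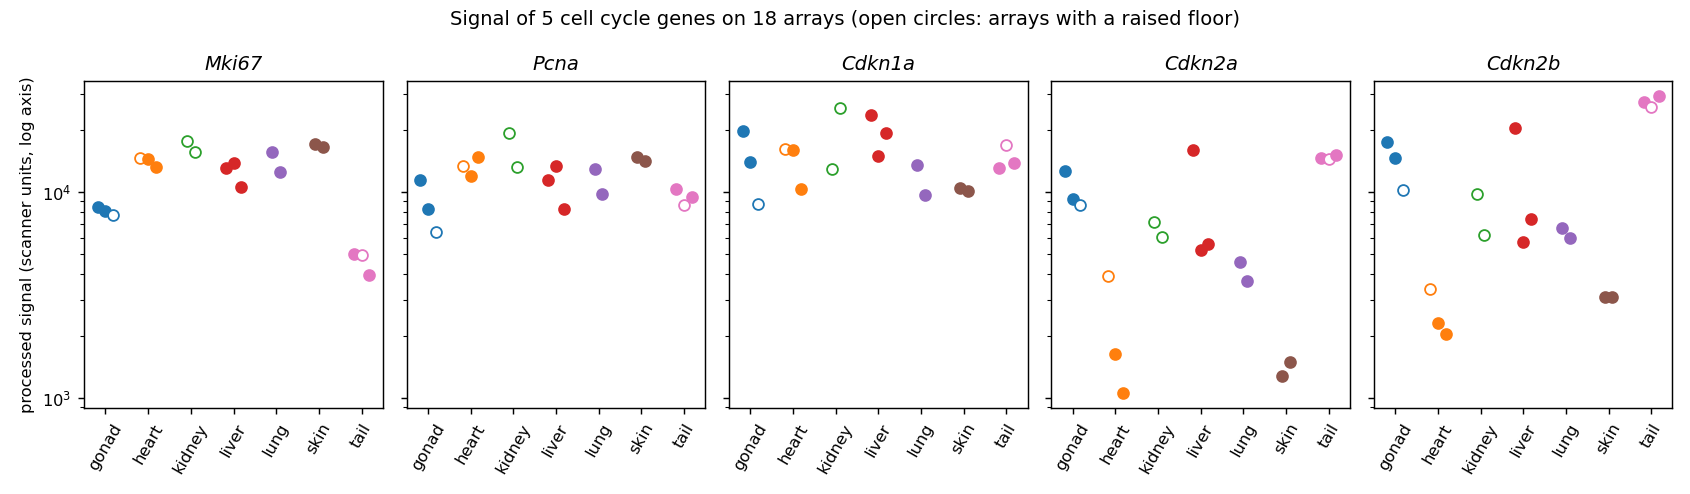
Processed signal (scanner units, log axis) of Mki67, Pcna, Cdkn1a, Cdkn2a and Cdkn2b on each of 18 arrays, grouped by organ, with raised-floor arrays as open circles. The 3 tail arrays are lowest for Mki67 (3939 to 4991) and highest for Cdkn2b (25784 to 29323), while Pcna and Cdkn1a overlap between organs.

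Tail cells had lower levels of mitotic genes than the 5 other organs on the 13 arrays, and than the 6 others after quantile normalization. In the planned fit the member median was lower in kidney (-1.70) than in tail (-0.87). In the planned fit 4 of 48 members were lower in tail and 2 higher, where 2.16% and 4.02% of all genes were and 6.18% passed either way. The lower members were Bub1, Cdc25c, Kif2c and Mybl2. On 13 arrays 30 of 47 members were lower and 2 higher, beside 5.61% and 17.7% of all genes. After quantile normalization 20 of 48 were lower and 2 higher, beside 3.34% and 4.76%. The 2 higher members were Cdkn2a and Cdkn2b each time. The median difference over members was -0.87, -1.22 and -0.93 in the 3 fits, against 0.34, 0.18 and 0.06 over all genes.

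Mki67, which encodes the proliferation marker Ki-67, read 4991, 4935 and 3939 on tail arrays and 8474, 8095 and 7761 on gonad arrays. It read 14708, 14411 and 13214 in heart, 13077, 13886 and 10594 in liver, 15705 and 12532 in lung, 17063 and 16603 in skin and 17725 and 15579 in kidney. In these signals, which are not scaled between arrays, tail was below gonad, and gonad below every other organ, with no overlap. The place of kidney in that order turned with the scaling. Gonad exceeded kidney by 1.58 in the planned fit (adjusted p = 0.0325) and lay below it by -0.51 after quantile normalization (adjusted p = 0.043). Tail differed by -1.16 (adjusted p = 0.128) in the planned fit, by -1.65 ± 0.12 (3.13-fold lower, adjusted p = 4.92e-05) on 13 arrays and by -1.47 ± 0.13 (adjusted p = 1.18e-05) after quantile normalization. Within slides 1, 2 and 3 it was -1.21, -1.33 and -0.88. Its second probe gave -1.71 ± 0.15 on 13 arrays.

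The 4 members that passed in the planned fit were all mitotic or drive mitosis. Bub1, a spindle checkpoint kinase, read 328, 353 and 269 in tail and 589 to 2940 on the 15 other arrays. Kif2c, a kinesin that takes apart microtubules at kinetochores, read 209, 281 and 220 in tail and 329 to 2808 elsewhere. For Mybl2 the signals were 1330, 1641 and 1376 in tail against 2036 to 11307 elsewhere. All 3 tail arrays lay below the 15 others for each of these 3 genes. Cdc25c, the phosphatase that activates Cdk1, read 188, 294 and 193 in tail, and gonad 3, at 264, lay among them.

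The planned differences were -1.40 ± 0.31 for Bub1 (adjusted p = 0.015), -1.25 ± 0.27 for Cdc25c (adjusted p = 0.0134), -1.34 ± 0.27 for Kif2c (adjusted p = 0.00704) and -1.49 ± 0.41 for Mybl2 (adjusted p = 0.0445). Each passed on 13 arrays, by -1.71 ± 0.12, -1.55 ± 0.13, -1.59 ± 0.16 and -1.89 ± 0.19 in the same order. A second Mybl2 probe gave -1.80 ± 0.21, but a second Kif2c probe, well above background on all 13 arrays, gave -0.71 ± 0.23. Cdc25c did not pass after quantile normalization (-1.11, adjusted p = 0.121). The count of 6 passing members rested on the tail arrays and heart 1. It was 2 without tail 1, 3 without tail 3 and 24 without heart 1, where 9.94% of all genes passed. Bub1 was lost without any one tail array (adjusted p = 0.0818, 0.0855 and 0.101 without replicates 1, 2 and 3). Kif2c was lost without tail 1 (adjusted p = 0.0722), and Cdc25c without tail 1 (adjusted p = 0.121) or tail 3 (adjusted p = 0.0891). Mybl2 passed in 15 of 31 alternatives, and its adjusted p without 1 array reached 0.216.

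By role, more of the mitotic than of the replication genes passed as lower in tail on 13 arrays, where 5.61% of all genes did. Lower were 9 of 12 cyclin, kinase and checkpoint genes (median -1.49), 13 of 15 spindle, chromosome and cytokinesis genes (median -1.48) and 2 of 3 transcription factors (Mybl2 and Foxm1), but 6 of 14 replication genes (median -0.96). After quantile normalization these counts were 7 of 13, 10 of 15, 2 of 3 and 1 of 14, beside 3.34% of all genes. The difference between roles was not tested.

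Plk1, the kinase that drives mitotic entry and spindle assembly, read 4270, 5074 and 4640 in tail and 5631 to 21944 on the other arrays. On 13 arrays it was 3.56-fold lower in tail (-1.83 ± 0.15, adjusted p = 9.64e-05). Cyclin B2 (Ccnb2) was lower by -1.63 ± 0.12, with 3501, 3667 and 3249 units in tail and 4653 to 13022 elsewhere. Cdc20, an activator of the anaphase-promoting complex, differed by -1.61 ± 0.13 and Aurka, a centrosomal kinase, by -1.69 ± 0.20. Among spindle and chromosome genes the largest differences were those of Cenpa (-1.81 ± 0.12), the centromeric histone, Tpx2 (-1.78 ± 0.12), which activates Aurka at the spindle, and Cenpe (-1.75 ± 0.17), a kinetochore motor. The Tpx2 probes disagreed, with -0.29 ± 0.19 for the second, which was also well above background on all 13 arrays. Each of these 7 genes also passed after quantile normalization, and none did in the planned fit (adjusted p = 0.0513 for Tpx2 to 0.246 for Cdc20).

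Replication genes ranged from a passing tail difference to values near 0. Mcm5, a helicase subunit, was lowest (-1.42 ± 0.15 on 13 arrays, adjusted p = 0.000234), with 2014, 2057 and 1931 units in tail. Tk1, Mcm3, Gins1, Tyms and Mcm2 followed, from -1.24 ± 0.16 for thymidine kinase (Tk1) to -1.01 ± 0.18 for Mcm2. Of these 6 genes Mcm5 alone passed after quantile normalization (-1.07 ± 0.23). Pcna, the sliding clamp of DNA polymerase, read 10318, 8682 and 9446 in tail, 11454, 8266 and 6382 in gonad, 13350, 11922 and 14802 in heart, 11422, 13325 and 8243 in liver, 12908 and 9820 in lung, 14820 and 14197 in skin and 19269 and 13250 in kidney. The Pcna ranges of tail, gonad and liver overlapped, and the tail difference was -0.38 ± 0.16 (adjusted p = 0.0873) on 13 arrays. Rrm2, a subunit of ribonucleotide reductase, read 18008, 22608 and 15134 in tail and differed by -0.19 ± 0.15 (adjusted p = 0.324).

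On 13 arrays 44 of 47 members had a tail difference below 0, and the 3 above were Cdkn2a, Cdkn2b and Ttk. Ttk, a checkpoint kinase, was dim (47 and 245 units on tail 1 and tail 3) and its tail arrays disagreed. Both tail arrays lay below the 11 others for 33 of 47 members, where 10.2% of all genes did so, and above them for Cdkn2b alone, where 9.43% did. In processed signals with no scaling, all 3 tail arrays lay below the 15 others for 19 members, 4 of them replication genes (Mcm2, Tyms, Tk1 and Gins1). The share of all genes that did so was not counted, so the 19 are not shown to be particular to members. Unscaled, heart 1 and both kidney arrays are brighter as a whole, with 75th percentiles of 2276 to 4235 against 554.6 to 698.5 on tail arrays.

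**Figure D2:**
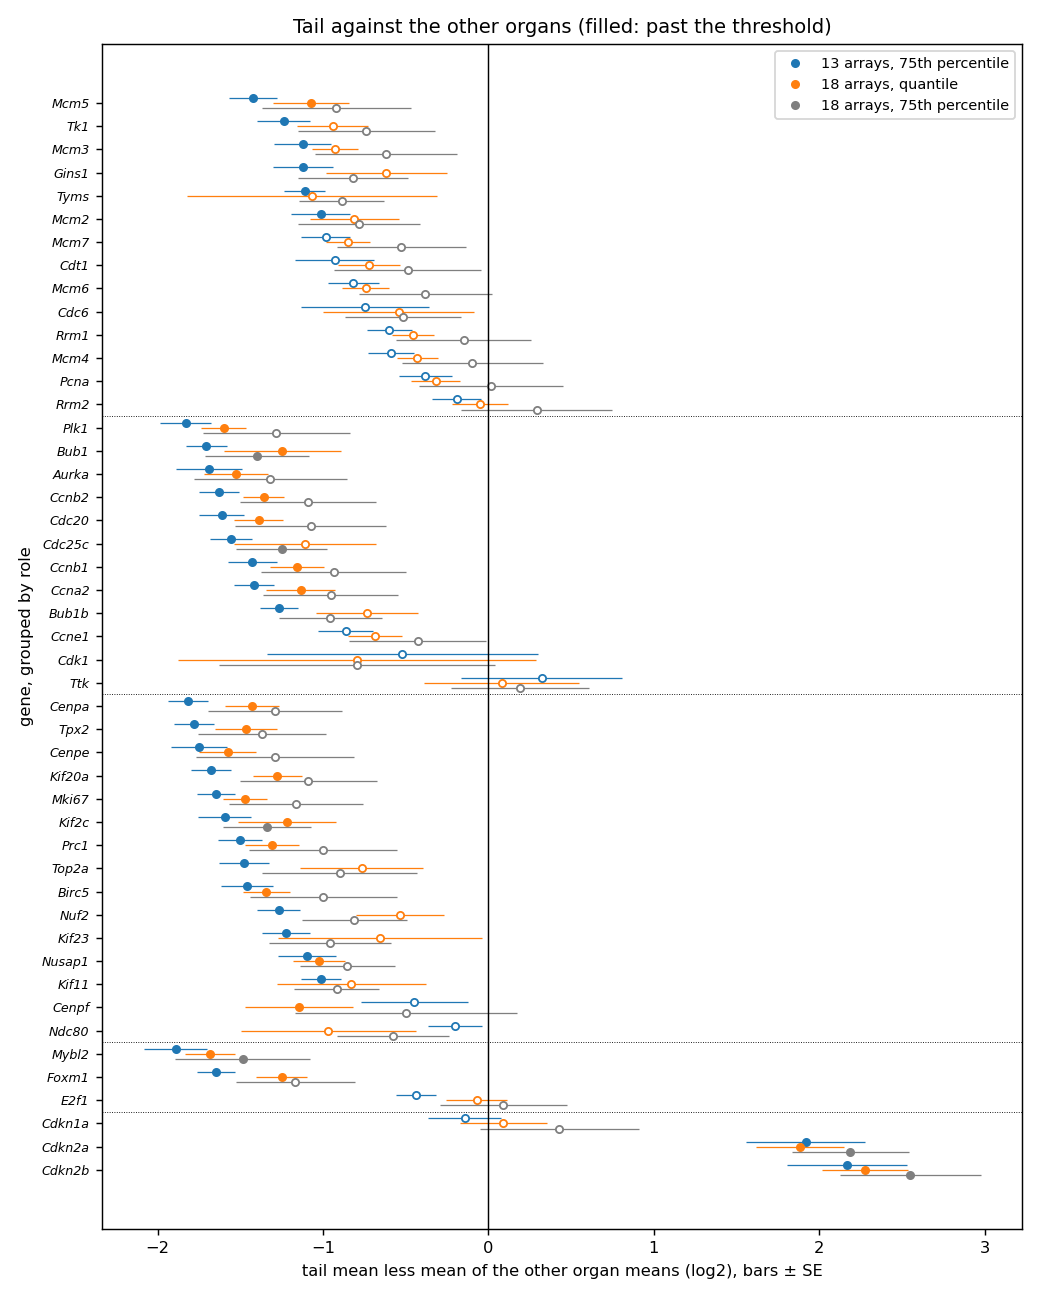
Tail mean less the mean of the other organ means (log2, bars ± SE) for 47 members grouped by role, in 3 fits, with filled circles for differences past the threshold. Mitotic genes lie near -1.5 on 13 arrays, Pcna and Rrm2 lie close to 0, and Cdkn2a and Cdkn2b lie near 2 in all 3 fits.

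Markers of other cells also differed in tail, and their part in these results was not tested. Of 5 mesothelial markers 4 were lower in tail on 13 arrays. Their summed signal was 146 to 162 in tail, 108 to 155 in skin and 318 to 331 in heart, against 14361 to 15708 in gonad, 8098 to 55468 in liver and 15039 to 41323 in lung. Of 5 smooth muscle and pericyte markers 2 were lower, with sums of 312558 to 337255 in tail, 198925 to 219209 in heart and 395535 to 584925 in the other organs. Of 6 endothelial markers 3 were lower and 1 higher. Lower too were 2 of 6 simple epithelial, 1 of 7 macrophage and 1 of 12 fibroblast markers. Of 5 keratinocyte markers 2 were higher on 13 arrays, and 0 were higher in the planned fit or after quantile normalization. On 13 arrays 17.7% of all genes were higher in tail and 5.61% lower. In such bulk samples fewer cells of a type and less RNA per cell cannot be told apart.

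Heart and skin cells had the highest member medians on the 13 arrays. The median difference in heart was 0.38 in the planned fit, below liver (0.54) and lung (0.45), then 0.74 on 13 arrays and 0.48 after quantile normalization. In skin it was 1.15, 0.76 and 0.76. Over all genes these medians were -0.11, -0.06 and -0.06 for heart and 0.38, 0.20 and 0.09 for skin. In the planned fit limma called 0 members higher in heart, where 1.36% of all genes were, and 2 lower (Cdkn2a and Cdkn2b), where 2.33% were. In skin it called 0 higher and 0 lower, beside 0.733% and 0.639%. There 34 of 48 members had an unadjusted p under 0.05, and the share of all genes at that p was not counted. On 13 arrays 6 members were higher in heart beside 3.76% of all genes and 2 lower beside 5.81%. In skin 5 were higher beside 20.8% and 2 lower beside 4.23%. The share of members higher in skin was below the background. After quantile normalization 1 member was higher and 2 lower in heart (2.23% and 2.57% of all genes), and 2 were higher and 1 lower in skin (1.1% and 1.05%). Both counts turned on heart 1, a raised-floor array. Without it the count of members passing either way rose from 2 to 22 in heart, while the share of all genes rose from 3.69% to 10.4%, and from 0 to 28 in skin, while that share rose from 1.37% to 6.22%.

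The 6 heart members were Plk1 (1.22 ± 0.15, adjusted p = 0.000889), Mcm5 (2.15-fold higher, adjusted p = 0.00118), Aurka (1.08 ± 0.20), Nuf2 (1.02 ± 0.13), Kif20a (1.02 ± 0.12) and Cdc20 (1.01 ± 0.13). Plk1 read 19912 and 21944 on heart 2 and heart 3, 18883 and 18986 on the skin arrays and 4270 to 16262 on the 9 other arrays without a raised floor. Nuf2, a kinetochore subunit, was the one member that was also higher in heart after quantile normalization (1.02 ± 0.27, adjusted p = 0.0393). Both heart arrays lay above the 11 others for 10 of 47 members, where 5.58% of all genes did so, and 9 of the 10 act in mitosis, the other being E2f1.

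The 5 skin members were Cenpf, Mybl2, Rrm2, Gins1 and Kif11. Rrm2 read 31627 and 35998 in skin and 10462 to 18008 on the other arrays without a raised floor, a difference of 1.28 ± 0.15 (2.42-fold, adjusted p = 0.000722), with 1.02 ± 0.20 (adjusted p = 0.0184) after quantile normalization. The 2 kidney arrays were also high, at 32109 and 45351. Mybl2 read 7164 and 8152 in skin, a difference of 1.34 ± 0.19 (adjusted p = 0.00157), with 1.06 ± 0.18 (adjusted p = 0.00796) after quantile normalization. Cenpf was dim, at 143 and 42 units in skin, and was well above background on 10 of 13 arrays. Both skin arrays lay above the 11 others for 9 of 47 members, where 11.7% of all genes did so.

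Heart and skin were set against each other and against tail on 13 arrays. Between heart and skin limma called 0 of 47 members, beside 5.03% of all genes higher in heart and 17.8% lower, and 5 members had an unadjusted p under 0.05. Skin exceeded tail in 37 members, where 6.83% of all genes did, and heart exceeded tail in 35, where 6.2% did. Skin held 4 of 5 keratinocyte markers higher than the other organs, with summed signals of 6802 to 7248 against 2011 to 3273 on the other 11 arrays without a raised floor, and their part in the result was not tested. Heart held 3 of 5 smooth muscle and pericyte markers lower.

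On the 13 arrays gonad cells differed from tail on one side and from heart and skin on the other. In the planned fit 1 member was higher in gonad, Cdkn2a, and 0 were lower, where 2.04% and 0.807% of all genes were. On 13 arrays and after quantile normalization Cdkn2a and Cdkn2b were both higher, beside 4.7% and 2.69% of all genes, and after quantile normalization 0 were lower beside 0.936%. On 13 arrays 43 of 47 members lay below 0, with a median of -0.37 against -0.16 over all genes, yet 0 members passed as lower, where 18.6% of all genes did. Of all 47 members 28 had an unadjusted p under 0.05 in either direction, with no share of all genes counted at that p. On these 13 arrays gonad exceeded tail in 13 members, where 7.04% of all genes did. It lay below skin in 20, where 25.9% did, and below heart in 15, where 8.65% did. Against liver limma called 0 members, beside 2.15% of all genes higher in gonad and 3.57% lower, and against lung 0, beside 2.84% and 5.57%. At an unadjusted p under 0.05 there were 20 members against liver and 21 against lung. Passing members in the same directions against tail, skin and heart numbered 0, 0 and 0 in the planned fit. After quantile normalization they numbered 3, 10 and 5. Shares of all genes are not given here for these pairs in those fits. On 13 arrays Mki67 was 1.04 ± 0.15 higher in gonad than in tail (adjusted p = 0.00101) and 1.08 ± 0.15 lower than in skin (adjusted p = 0.000857). Neither difference passed in the planned fit, at 0.97 (adjusted p = 0.494) against tail and -1.19 (adjusted p = 0.545) against skin. After quantile normalization they were 0.98 and -0.93, short of a difference of 1. Of 5 mesothelial markers 4 were higher in gonad on 13 arrays, as were 3 of 5 smooth muscle and pericyte markers and 3 of 6 endothelial markers. Lower were 4 of 7 macrophage, 4 of 5 keratinocyte, 2 of 6 simple epithelial and 2 of 12 fibroblast markers, and the part of these lists was not tested.

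Liver and lung cells stood near the middle. Limma called 0 members in either organ in all 3 fits, and the member medians on 13 arrays were 0.07 and 0.02. In liver 1.14% of all genes were higher and 0.545% lower in the planned fit, 2.6% and 3.57% on 13 arrays and 1.92% and 0.396% after quantile normalization. In lung these shares were 0.381% and 0.124%, 1.56% and 0.942%, and 0.758% and 0.158%. At an unadjusted p under 0.05 there were 3, 6 and 4 members in liver and 0, 8 and 3 in lung. With no minimum difference Rrm2 alone had an adjusted p under 0.05 in both organs on 13 arrays, at -0.52 ± 0.13 in liver and -0.68 ± 0.15 in lung. Between liver and lung 0 members passed, beside 0.244% of all genes higher in liver and 0.355% lower, and 4 had an unadjusted p under 0.05. In the value table lung 2 had a raw Mki67 signal of 11883, beside 16034.5 and 12669 for lung 1 and lung 3, and a Cdkn2b signal of 6383, beside 6962.5 and 6088. Of the 49 members 17 lay between lung 1 and lung 3 in these raw signals, 28 below both and 4 above both. More than 2-fold below both were Ccnb1 (55, beside 5639 and 4231) and Cdkn2a (1902.5, beside 4679 and 3835). More than 2-fold above both were Cdk1 (2010.5, beside 655.5 and 403) and Aurkb (348.5, beside 43 and 41.5). These 4 were singled out after their values were seen.

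**Figure D3:**
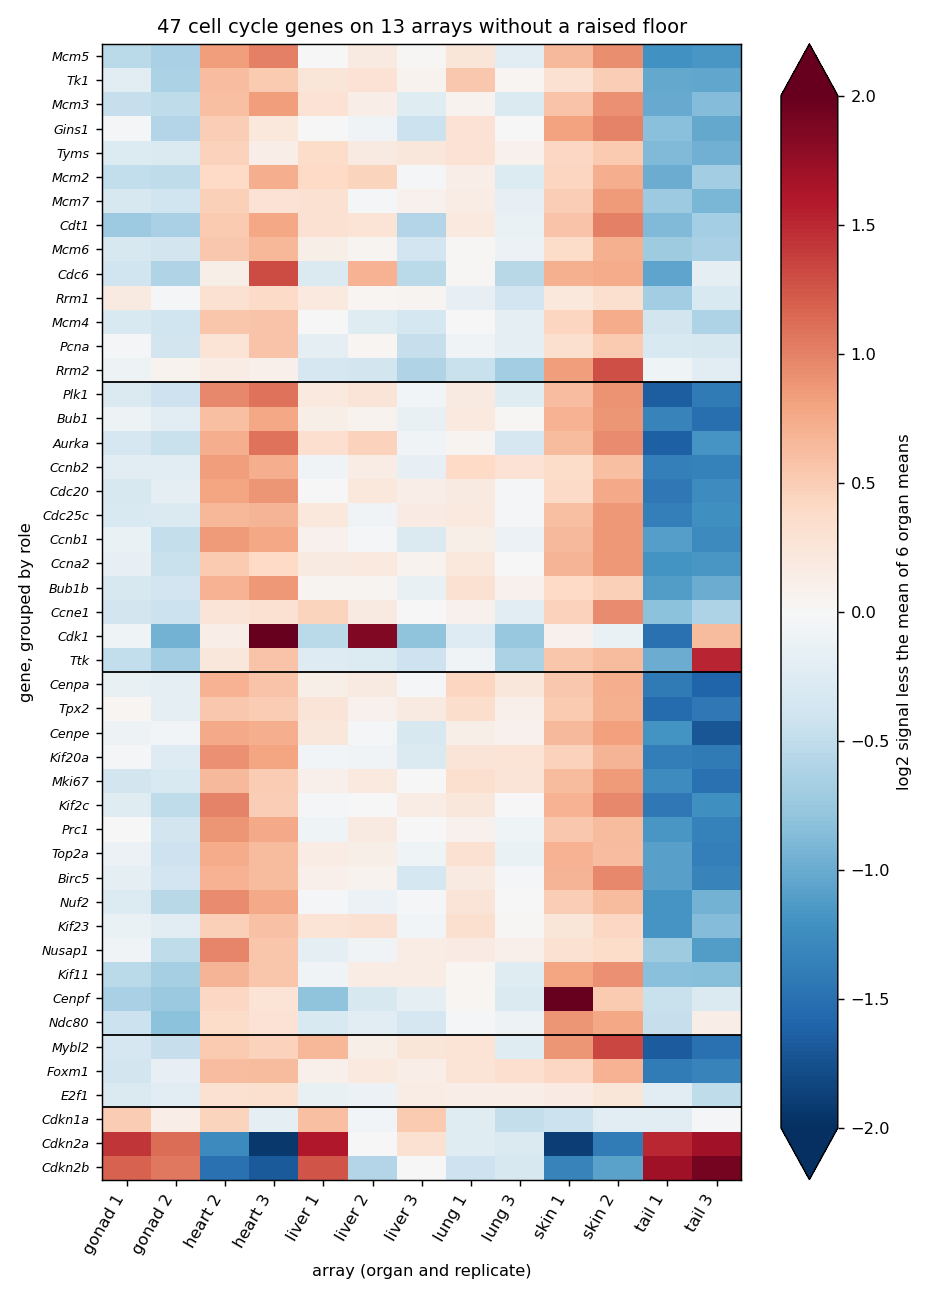
Log2 signal of 47 members less the mean of 6 organ means (colour, limits -2 to 2) on the 13 arrays without a raised floor, with genes grouped by role and ordered within a role by their tail difference. Tail columns are blue (lower) for most mitotic genes, except Cdk1, Ttk and Ndc80 on tail 3, heart and skin columns are mostly red (higher), and Cdkn2a and Cdkn2b run the other way.

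Across arrays the level of Cdkn2a and Cdkn2b ran opposite to that of mitotic genes on 13 arrays and after quantile normalization, but hardly so in the planned fit. Levels were the mean log2 value over the 2 inhibitors, or over 26 kinase, spindle and chromosome genes, each gene centred on its mean over organs. Cdkn1a, the third inhibitor, was left out of the inhibitor level. On 13 arrays the mitotic level was -1.21 and -1.01 in tail, -0.22 and -0.41 in gonad, 0.05, 0.15 and -0.10 in liver, 0.18 and -0.06 in lung, 0.55 and 0.72 in skin and 0.68 and 0.73 in heart. The inhibitor level was 1.61 and 1.80 in tail, 1.31 and 1.08 in gonad, 1.43, -0.28 and 0.15 in liver, -0.33 and -0.30 in lung, -1.61 and -1.23 in skin and -1.39 and -1.80 in heart. Organs kept the same rank order, reversed, in both.

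The points are 13 arrays from 6 organs, each scaled by 1 percentile. Pearson's r was -0.89 and Spearman's rho -0.90 over these 13 arrays, with r = -0.88 after the 2 farthest arrays were left out. Arrays of 1 organ share their source, so these values describe organs more than arrays. Deviations from the organ means, by contrast, had r = 0.06 over the 13 arrays. Liver 1 shows the same, with an inhibitor level far above liver 2 and liver 3 and a mitotic level between theirs. Over 18 arrays r was -0.72 after quantile normalization (-0.62 without the 2 farthest arrays). In the planned fit it was -0.10 (-0.59 without the 2 farthest), where heart 1 and both kidney arrays were low in both groups. Deviations from the organ means had r = 0.68 in the planned fit and 0.09 after quantile normalization. The level of 14 replication genes gave r = -0.87 on 13 arrays, -0.66 after quantile normalization and 0.13 in the planned fit.

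**Figure D4:**
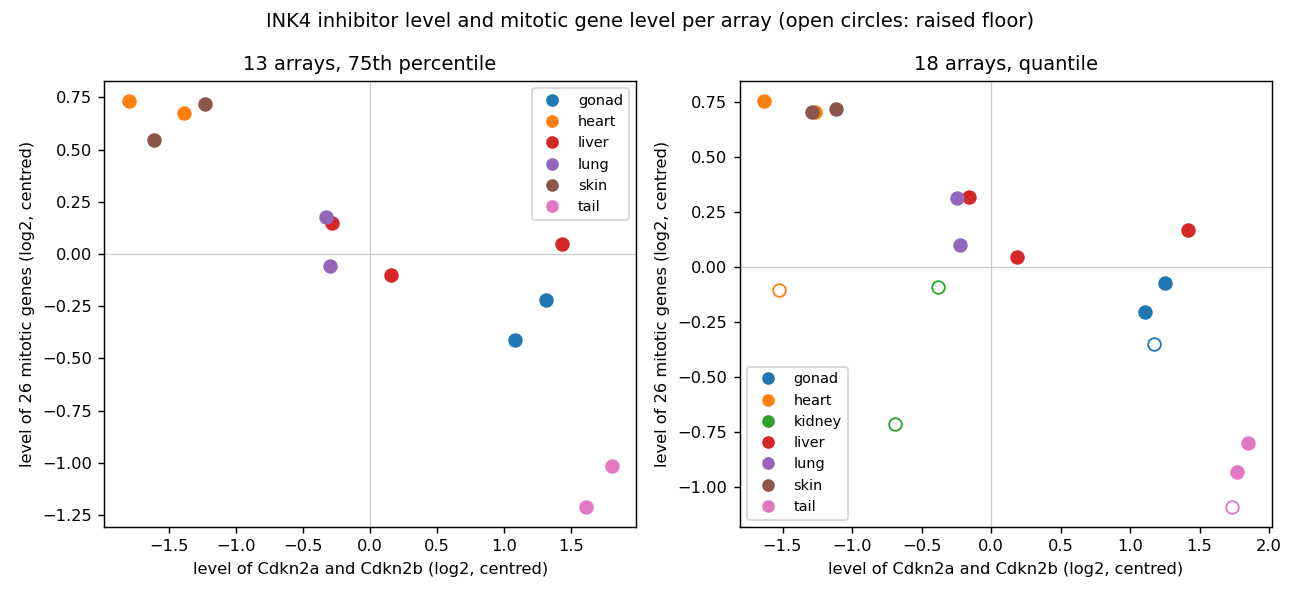
Mean centred log2 level of 26 mitotic genes against that of Cdkn2a and Cdkn2b per array, for 13 arrays (left) and for 18 quantile-normalized arrays (right), coloured by organ, with raised-floor arrays as open circles. Heart and skin lie at the upper left and tail at the lower right on 13 arrays, and heart 1 and both kidney arrays fall below that line on the right.

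The place of kidney was not settled. Both kidney arrays have a raised floor, and 33 of 48 members were lower and 2 higher (Ndc80 and Cenpf) in the planned fit, where 41.4% of all genes were lower, 35.1% higher and 76.5% either. Among the 12107 genes well above background on every array the median kidney difference was -1.72, and that of the members tested with them was -1.72 as well. The direction turned with the scaling. Mki67 was at -1.87 ± 0.48 (adjusted p = 0.00553) in the planned fit, at 0.26 ± 0.16 (adjusted p = 0.168) after quantile normalization and at 0.27 after scaling by the 95th percentile. After quantile normalization 13 members were lower and 2 higher, beside 30.6% and 18.4% of all genes. Without kidney 1 the count of passing members was 0. Of 6 simple epithelial markers 6 were higher in kidney under both scalings, with summed signals of 257917 to 398755 against 255 to 48995 on the other 16 arrays. Of 5 keratinocyte markers 3 were higher under both scalings, and 1 was lower in the planned fit. Of 12 fibroblast markers 11 were lower in the planned fit and 7 after quantile normalization, beside 41.4% and 30.6% of all genes. At least 11 of the 12 were well above background on each kidney array. The part of these lists in the result was not tested. In kidney the raised floor and the organ cannot be told apart.

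Dim members and members with several probes varied with the array. Ndc80 and Cenpf, kinetochore proteins, read 17795 and 11435 and 2559 and 1393 on the kidney arrays and 9205 and 1244 on heart 1, against 362 to 1302 and 19 to 143 on the 13 arrays without a raised floor. Aurkb was well above background on 3 arrays, all with a raised floor, and was not tested on the 13. For Cdk1, the kinase of mitotic entry, the brightest of 3 probes read 1062, 2855, 3151, 2339 and 916 on the 5 arrays of slide 3 and 147 to 640 on the 13 arrays of slides 1 and 2. This probe was thus high on every array of slide 3 whatever the organ, and its tail value on 13 arrays was -0.52 ± 0.82. A second Cdk1 probe, also well above background on all 18 arrays, did not share that pattern. It read 177, 28, 2192, 33 and 64 on the arrays of slide 3 and 24 to 1642 on slides 1 and 2. Its tail value on 13 arrays was 0.52 ± 0.39. The third probe was well above background on 0 arrays. The Birc5 (survivin) probes differed too, with tail values of -1.46 ± 0.18 and -1.41 ± 0.17 on 13 arrays for a pair of probes and -0.69 ± 0.50 for the third.

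Other genes of the cycle were counted from lists of the pathway. Of 36 further replication and mitosis genes, 4 were lower in tail in the planned fit, beside 2.16% of all genes. Among them were Orc1, an origin recognition subunit, at -1.32 ± 0.31 (adjusted p = 0.0196) and Kif4 at -1.17 ± 0.29 (adjusted p = 0.0278). On 13 arrays 23 of 36 were lower in tail and 1 higher, beside 5.61% and 17.7% of all genes. Anln, an actin-binding protein of cytokinesis, was at -2.19 ± 0.17 and Ube2c, the ubiquitin-conjugating enzyme of the anaphase-promoting complex, at -2.01 ± 0.21. The one that was higher was Chek1 (1.32 ± 0.31, adjusted p = 0.0114). On 13 arrays heart had 7 of 36 higher, where 3.76% of all genes were, and skin 5 of 36, a share below the 20.8% of all genes. After quantile normalization 10 of 36 were lower in tail, beside 3.34% of all genes.

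Of 16 G1 cyclins, kinases and pocket proteins, 0 passed in tail in the planned fit and 0 after quantile normalization, and 4 were lower on 13 arrays beside 5.61% of all genes, led by Cdk6 (-1.64 ± 0.26, adjusted p = 0.00204) and E2f2 (-1.43 ± 0.25). Cdk6, a partner of D cyclins, was higher in heart (1.65 ± 0.26, adjusted p = 0.00297), and Ccnd1 (cyclin D1) was higher in gonad (1.22 ± 0.20, adjusted p = 0.00262). Of 5 other Cdk inhibitors, Cdkn1c (p57) was higher in tail on 13 arrays (1.51 ± 0.31, adjusted p = 0.00663) and after quantile normalization (1.02 ± 0.27), and Cdkn3, a phosphatase made in mitosis, was lower (-1.38 ± 0.17).

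Targets of p53 included genes that passed in both directions. Of 20, 3 were higher in tail and 1 lower in the planned fit, beside 4.02% and 2.16% of all genes, with Fas, a death receptor, at 2.06 ± 0.41 (adjusted p = 0.00667) and Perp, a membrane protein, at -2.92 ± 0.48 (adjusted p = 0.00178). On 13 arrays 3 were higher and 1 lower, beside 17.7% and 5.61%, so the share higher was below that of all genes, with Fas at 1.19 ± 0.20 and Perp at -3.18 ± 0.61. The median of the list in tail was 0.66 in the planned fit and 0.18 on 13 arrays, against 0.34 and 0.18 over all genes. In skin 5 of 20 were lower on 13 arrays, beside 4.23% of all genes, with Trp53inp1 at -2.24 ± 0.18 and Ddit4l at -1.92 ± 0.20, and in heart Pmaip1, a pro-apoptotic protein, was lower (-2.17 ± 0.42 in the planned fit, adjusted p = 0.00825).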

How the data were processed

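Per the submitters' processing notes and file headers, arrays were read with Agilent Feature Extraction 11.0.1.1. The deposited intensity used is the processed signal of a spot, background-subtracted by that software and not normalized between arrays. The deposited flags (0 or 1) give each spot's detection, saturation and uniformity. The deposited value table, an intensity too, equalled the raw median on 18 of 18 arrays and was an alternative only. Columns were grouped by the organ in the labels.

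Of 55681 probes 27235 had a symbol by RefSeq accession. Outlier spots were set to missing (4493 values), and 0 spots were saturated. The brightest complete probe per gene was kept, giving 20197 genes on 18 arrays (20193 with every organ) and 18052 on 13. Limma 3.58.1 (R 4.3.3) estimated a mean per organ, with 11 residual degrees of freedom (7 on 13 arrays), and tested 7 organ contrasts and 21 pairs. The fit was tested on simulated data. The number of arrays limits the precision.

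Members, gene lists and tests were chosen with earlier results of these data known. Full values were planned for Mki67, Pcna and the 3 inhibitors and for up to 4 passing members per role and contrast. Kidney members are named in part, since their direction was not settled. Deviations of same-numbered samples had a median r of -0.04 over 46 pairs (-0.85 to 0.78). For 92 pairs with other numbers it was 0.02 (-0.84 to 0.90). With so wide a spread these values cannot show whether same-numbered samples shared an animal. Numbers were not taken as pairs.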

Additional observations from a re-analysis of the deposited data

How the results depend on the processing

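Cdkn2a and Cdkn2b in tail and Cdkn2b in heart passed in each of 31 alternatives. Setting saturated spots to missing left the values as they were, since 0 spots were saturated, and is not counted among them. The counts of passing members moved more, and the share of all genes moved as well. For the F test that share was 32.3% as planned, 53% on 13 arrays, 38.9% with quantile normalization and 80.3% without heart 1. For tail, either way, it was 6.18% as planned and 9.94% without heart 1. The counts that follow stand without that share, so a move in them is not shown to be particular to members. Members that differed among organs (24 as planned) numbered 43 on 13 arrays, 42 on 13 arrays with quantile normalization, 42 with the 95th percentile, 39 with the median of detected probes, 37 with quantile normalization and with normexp, 41 with genes well above background on all arrays, 40 in the value table, 11 with the slide as a block and 3 to 44 without 1 array. For tail (6 as planned) the counts were 32 on 13 arrays, 33 on 13 arrays with quantile normalization, 31 with the 95th percentile, 25 with the median, 22 with quantile normalization, 19 with normexp, 10 in the value table, 24 with the floor as a covariate and 2 to 24 without 1 array. For heart (2) they were 8 on 13 arrays, 4 on 13 arrays with quantile normalization, 5 with the floor as a covariate and 1 to 22 without 1 array. For skin (0) they were 7 on 13 arrays, 9 on 13 arrays with quantile normalization, 4 with the 95th percentile and with the median, 3 with quantile normalization and with normexp, 10 with the floor as a covariate and 0 to 28 without 1 array. Gonad (1) had 2 on 13 arrays, on 13 arrays with quantile normalization, with the 95th percentile, the floor covariate, the median, normexp, quantile normalization, the value table and the all-array filter, and 0 to 3 without 1 array. Kidney (35) had 15 with the 95th percentile and with quantile normalization, 21 with the median, 10 with normexp, 0 with the floor covariate and 0 to 38 without 1 array. Liver had 0 to 1 and lung 0 without 1 array, and calls over the 21 pairs (169) ran from 19 without kidney 1 to 394 without heart 1.

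The sign turned in kidney for Mki67 (0.26 with quantile normalization, 0.23 with normexp, 0.27 with the 95th percentile), Pcna (0.16, 0.13 and 0.17) and, with the 95th percentile, Cdkn1a (0.077) and Cdkn2a (0.099). With the replicate number as a block the count among organs was 7, for tail 5 and over pairs 139. Numbers alone do not pair these samples. The 95th percentile and 13 arrays with quantile normalization were chosen after seeing the data. Apart from the arrays left out and the scaling itself, the cause was not tested. Dim members (Ttk, Cenpf and Aurkb) are limited by signal over background.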
